A study of Mus musculus with 6 samples.

Results

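The genes described here carry signals from tumour necrosis factor (TNF), Toll-like receptors (TLRs) and interleukin-1 (IL-1) family receptors to the transcription factor NF-kB. They were taken by symbol from a list of 52 genes, of which 51 were in the table of 12389 genes. Traf1 was not analysed here. By role they are 13 receptors (the ligand IL-33 among them), 18 adaptors and kinases, 5 NF-kB subunits, 8 inhibitors (the IkB family genes Bcl3 and Nfkbiz counted among them) and 7 target genes. RNA came from primary vascular smooth muscle cells grown out of explants of mouse thoracic aorta, with 3 cultures from wild-type mice (WT) and 3 with smooth muscle loss of LRRC8A (KO), the obligatory subunit of the volume-regulated anion channel. Both groups were kept in DMEM with serum up to passage 6 and received no treatment before RNA was taken. Groups were taken from the sample titles, since all 6 are entered as wild type under genotype. Age, sex, strain, the means of deletion and whether cultures were pooled are not stated in the sources at hand.

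In resting cells NF-kB dimers are held in the cytoplasm by IkB proteins. Ligand-bound TNF receptors recruit TRADD, RIPK1, TRAF and cIAP proteins, and TLRs and IL-1 receptors recruit MYD88 and IRAK kinases. Both routes use TAK1 and the IKK complex, which marks IkB for destruction, and the freed dimers switch on adhesion molecules, cytokines and their own inhibitors, IkB alpha and A20. In the arterial wall the pathway is known for the adhesion molecules and chemokines by which smooth muscle cells draw in leukocytes.

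Icam1, the target gene for an adhesion molecule that binds leukocyte integrins, was 5.11 times lower in KO cultures by group means. Lcn2, the gene for the secreted siderophore-binding protein lipocalin 2, had at least 38.0 scaled reads in each WT culture and at most 5.35 in a KO culture. Il1r1, the signalling receptor for IL-1, and Birc3, the ubiquitin ligase cIAP2, were also lower in every KO culture than in any WT culture. The genes of the core relay, from Myd88 and Traf6 to Ikbkb and Rela, had small log2 fold changes, and Vcam1, the other adhesion gene of the set, overlapped between the groups. With 3 cultures against 3, none of the 51 genes passed an adjusted p of 0.05 in limma, as 0.0% of the 12363 genes tested did. At an unadjusted limma p under 0.05 there were 4 of the 51 genes (Icam1, Lcn2, Il1r1 and Birc3), all lower in KO, against 3.62% of all genes in either direction and 2.15% lower in KO. Lcn2 met the minimum level for testing only through its WT values, so among tested genes it could only be lower. Without it there were 3 of 50. With the replicate number as a block in limma there were 5 (Tnfrsf21 besides), against 7.42% of all genes. Without WT replicate 2 there were 2, Icam1 and Il1r1, and the share over all genes in that fit is not given here.

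Promoter sequences help to place these genes, since several members are also NF-kB target genes. RefSeq promoter windows (GRCm38.p6, 250 bases before to 50 after a transcription start) matched 42 of the 52 listed genes, with 56 windows. The windows were searched on both strands for the kappa B consensus, a degenerate site of 10 bases, and for GGANNTTCC, which can overlap it. Of the 56 windows, 17 (30.4%, in 14 genes) held the kappa B consensus, against 8.46% of all 32851 windows and 10.4% of the windows of genes in the table. GGANNTTCC stood in 11 of the 56 (19.6%, in 10 genes), against 4.26% of all windows and 4.57% of those of genes in the table. Windows of the same gene can overlap, as for Irak1 and Nfkb2, so a site can be counted more than once. Among the 9060 genes in the table with a window, 1117 held the kappa B consensus and 495 held GGANNTTCC. A match describes letters only and is not a measured site.

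The stretches of 250 bases before the start of 4 genes are shown, 5′ to 3′ on the gene's strand, with matches to either motif in capitals. Of the 6 members whose cultures did not overlap between genotypes, Icam1 and Il1r1 are shown, the ones with a stretch wholly outside the annotated body of their own gene. Shown beside them are the IkB genes Nfkbia and Nfkbie because they encode inhibitors that NF-kB itself is known to induce, with stretches that also lie outside their gene bodies. For Il1r1 the stretch belongs to the more upstream of its RefSeq starts.
Icam1, chr9:21015690-21015939, plus strand: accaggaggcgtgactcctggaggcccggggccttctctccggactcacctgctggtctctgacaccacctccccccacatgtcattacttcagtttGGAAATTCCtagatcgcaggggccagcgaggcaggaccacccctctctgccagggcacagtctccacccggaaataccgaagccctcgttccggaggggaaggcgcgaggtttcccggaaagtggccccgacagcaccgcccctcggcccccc
Il1r1, chr1:40224830-40225079, plus strand: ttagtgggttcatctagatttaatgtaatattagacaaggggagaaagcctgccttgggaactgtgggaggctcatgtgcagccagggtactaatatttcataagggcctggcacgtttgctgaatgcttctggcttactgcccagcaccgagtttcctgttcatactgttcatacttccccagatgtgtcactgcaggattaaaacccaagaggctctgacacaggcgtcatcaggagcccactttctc
Nfkbia, chr12:55492648-55492897, minus strand: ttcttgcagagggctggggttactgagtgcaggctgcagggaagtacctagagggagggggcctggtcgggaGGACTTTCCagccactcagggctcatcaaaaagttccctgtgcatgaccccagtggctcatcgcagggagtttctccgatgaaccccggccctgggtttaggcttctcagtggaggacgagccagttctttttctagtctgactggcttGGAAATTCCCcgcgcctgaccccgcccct
Nfkbie, chr17:45555450-45555699, plus strand: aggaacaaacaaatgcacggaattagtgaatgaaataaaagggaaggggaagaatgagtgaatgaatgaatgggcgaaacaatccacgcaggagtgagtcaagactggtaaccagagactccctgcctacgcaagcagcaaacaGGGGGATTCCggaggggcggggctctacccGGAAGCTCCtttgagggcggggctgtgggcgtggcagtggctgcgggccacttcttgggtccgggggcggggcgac
In Icam1 the capitals mark GGAAATTCC, from base -153 to -145 counted from the start, and both strands match GGANNTTCC there. In Nfkbia they mark GGACTTTCC from -178 to -170 and GGAAATTCCC from -29 to -20, the latter a match to both motifs. In Nfkbie a kappa B match, GGGGGATTCC, runs from -106 to -97 and a GGANNTTCC match from -76 to -68. The Il1r1 stretch shown holds neither motif, which says only that these letters are not in this window. The window of the other Il1r1 start holds a kappa B match, GGAATGCCCC, from -232 to -223.

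The deposited values are reads scaled by a factor for each library, called scaled reads here, and the values of single libraries are given in the order of replicates 1, 2 and 3. The estimated depth was 31.0 to 47.9 M reads per library, and same-numbered WT and KO cultures deviated together across genes (r of 0.433, 0.151 and 0.389). Lrrc8a, the targeted gene, stood at 2578, 2194 and 1221 scaled reads in WT against 868, 672.5 and 506 in KO, with every KO culture below every WT culture. Its log2 fold change in limma was -1.51 (SE 0.34, unadjusted p = 0.00291, adjusted p = 0.999). The authors' deposited table gave a log2 ratio of -1.55 with an FDR of 0.0196. Of 8 smooth muscle markers 7 were in the table. Acta2 stood at 10651 scaled reads or more in every library, and none of the list's 4 defining markers was at 0. Myh11 had 90.1, 152 and 1656 scaled reads in WT and 41.7, 20.8 and 96.8 in KO (log2 fold change -2.63, SE 1.16). Lmod1 was at -2.46 (SE 1.37), while Acta2 was at 0.14 and Tagln at 0.56. Of the 7 markers, 5 had a log2 fold change below 0, where 49.6% of all genes did. None of the 7 had an unadjusted limma p under 0.05, where 3.62% of all genes did. Their summed level ran from 80856 to 374390 in WT and from 82323 to 192900 in KO, highest in replicate 3 of both. Cald1 made up much of the lowest sums, with 64335 scaled reads in WT replicate 1 and 50826 in KO replicate 1. The sum therefore says little about markers with low values. Of 12 leukocyte and macrophage markers 4 were in the table, and Ptprc and the other 7 were not analysed here. Their sum ran from 1995 to 2616 in WT and from 834 to 1676 in KO, without overlap, and none of the 4 was at 0. Taken singly, Lyz2 did not overlap, where 4.51% of all genes were lower in KO without overlap. Cd14, Csf1r and Cd68 overlapped and were higher in KO than in WT in replicate 3. Of 8 mesothelial and epithelial markers 5 were in the table, summing to 5625 to 11590 in WT and 1104 to 6157 in KO, with Krt18 at 0 in KO replicate 3. For 2 of 8 endothelial markers (94.9 to 461 in WT, 116 to 463 in KO) and 5 of 6 fibroblast markers (18011 to 31215 and 16869 to 40165) the sums overlapped, with none at 0 among those. Fewer cells of a type and less RNA per cell cannot be told apart in bulk RNA, and the part these cell markers have in the results was not tested.

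Over the 51 genes, 39 had a log2 fold change below 0 (KO over WT), where 49.6% of all genes tested did, and their median was -0.16, against 0.00 over all genes. The median differed by role, at -0.30 for the receptors, -0.07 for the adaptors and kinases, -0.09 for the NF-kB subunits, -0.41 for the inhibitors and -0.56 for the targets. Within 0.5 of 0 on the log2 scale lay 38 of the 51 genes, a smaller share than the 83.4% of all genes. In 13 genes KO was below WT in all 3 same-numbered pairs (15.0% of all genes) and in 3 genes above in all 3 (15.7%). KO and WT cultures did not overlap for 6 genes, where 8.43% of all genes do not: Icam1, Lcn2, Il1r1, Birc3 and Relb were lower (4.51% of all genes are) and Chuk was higher. Without Lcn2, tested only through its WT values, 4 genes were lower. Groups that do not overlap give an exact two-sided permutation p = 0.1, the smallest that 3 against 3 allows. Log2 fold changes are of log2(value + 2), which understates the change of genes with low values.

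**Figure D1:**
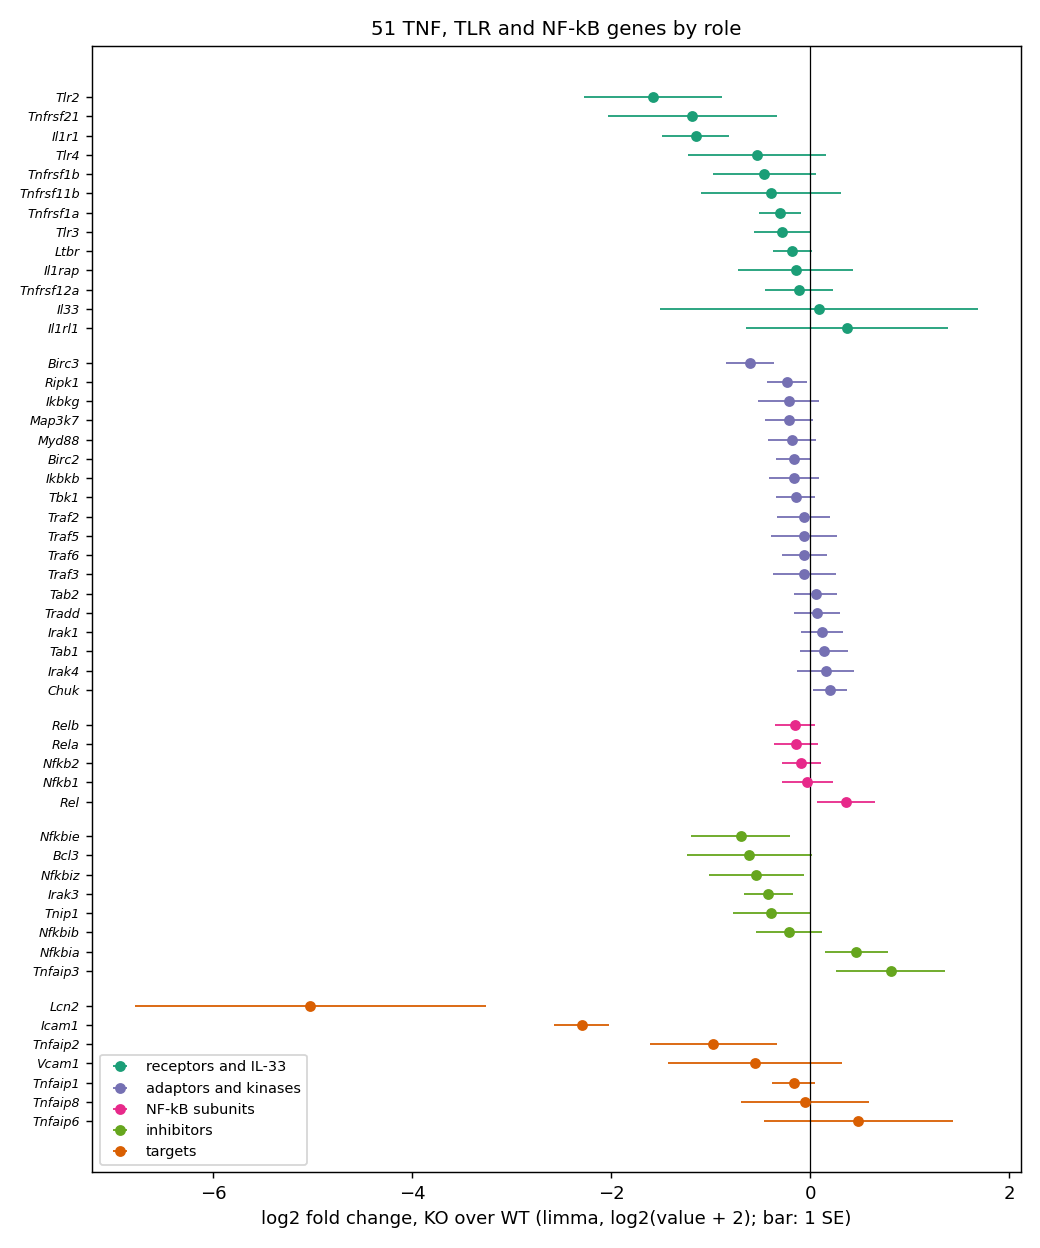
Log2 fold change, KO over WT, of each of the 51 genes (horizontal axis, points with bars of 1 SE, from limma) grouped by role (colours). Of the 51 points, 39 lie below 0, Lcn2 and Icam1 lie farthest to the left, and the adaptors, kinases and NF-kB subunits sit close to 0.

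The receptors and their ligand come first. Il1r1 (ENSMUSG00000026072, GRCm38 chromosome 1, 40225080 to 40317257) stood at 966, 1301 and 1937 scaled reads in WT against 478, 540 and 856 in KO. The highest KO culture stayed below the lowest WT culture, and replicate 3 was highest in both genotypes. The difference was nearly the same in each pair, at -1.01, -1.27 and -1.18 on the log2 scale. In limma the log2 fold change was -1.15 (SE 0.34, unadjusted p = 0.0111, adjusted p = 0.999), and the authors' deposited table gave -1.17 with an FDR of 0.259. With the replicate number as a block in limma the SE was 0.18 (unadjusted p = 7.33e-04, adjusted p = 0.259). The chain that IL-1 and IL-33 receptors share, Il1rap, averaged 1172 ± 532 scaled reads over WT cultures against 1153 ± 636 over KO cultures (SD, n = 3 each), and its log2 fold change was -0.15.

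Tnfrsf1a, the main receptor for soluble TNF, had 7070, 8599 and 8362 scaled reads in WT and 5757, 6102 and 7674 in KO. KO was lower in each pair, but KO replicate 3 lay above WT replicate 1, so the groups overlapped (log2 fold change -0.30, SE 0.21, limma unadjusted p = 0.184). Per kilobase of annotated exon it was the second most abundant of the 51 genes in WT, at 3092 ± 318 scaled reads per kb, after Vcam1 at 4248 ± 1864. Next stood Tnfrsf12a, the receptor for TWEAK, at 2737 ± 959, Icam1 at 1900 ± 677 and Ltbr, the lymphotoxin beta receptor, at 1840 ± 272 (SD, n = 3 each). The SDs of these neighbours overlap, so their order is not resolved. At the low end were Rel at 52.7 ± 14.0 and Tnfrsf21, death receptor 6, at 47.9 ± 35.4. These levels divide by the union of all annotated exons, so a gene with long and rarely used exons reads low.

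Tlr4, the receptor for bacterial lipopolysaccharide, had 2326, 3678 and 1204 scaled reads in WT and 2440, 2529 and 547 in KO. Replicate 3 was lowest in both genotypes and the groups overlapped (log2 fold change -0.54, SE 0.69, limma unadjusted p = 0.467). Tlr2, a receptor for bacterial lipoproteins, had 341, 400 and 153 scaled reads in WT and 34.2, 126 and 171 in KO. Its pairs differed by -3.24, -1.65 and 0.16, so KO was lower in pairs 1 and 2 and slightly higher in pair 3 (log2 fold change -1.58, SE 0.70, limma unadjusted p = 0.057). Tlr3, which binds double-stranded RNA, had a log2 fold change of -0.28 (SE 0.28). Tnfrsf21 was lower in KO in all 3 pairs, by -1.30, -1.31 and -0.95, although it ranged from 60.9 to 350 scaled reads in WT and from 30.6 to 140 in KO. The values of Tnfrsf21 and Tlr2 are given because they stood out after they were seen. The remaining TNF receptors had log2 fold changes of -0.46 (Tnfrsf1b, TNF receptor 2), -0.18 (Ltbr), -0.11 (Tnfrsf12a) and -0.39 (Tnfrsf11b, the secreted decoy osteoprotegerin).

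Il33, an alarmin released from damaged cells, and Il1rl1, its receptor ST2, varied more between cultures than between genotypes. Il33 had 65.2, 690 and 43.5 scaled reads in WT and 181, 762 and 16.4 in KO. Replicate 2 was the high culture in both genotypes, and the log2 fold change was 0.09 with an SE of 1.60 (limma unadjusted p = 0.956). Il1rl1 had 244, 1118 and 511 scaled reads in WT and 144, 1402 and 1495 in KO, lowest in replicate 1 of both (log2 fold change 0.37, SE 1.02). Tnfrsf11b had 641, 1976 and 1766 in WT and 2383, 963 and 432 in KO, so WT was lowest and KO highest in replicate 1. The spread within a genotype on the log2 scale had a median SD of 0.88 over the receptors, 0.98 over the targets and 0.65 over the inhibitors. Over the adaptors and kinases and over the NF-kB subunits it was 0.25 each, and over all genes tested 0.36. An SD above 0.7, a bound set after the values were seen, was found for 17 of the 51 genes and for 18.2% of all genes.

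**Figure D2:**
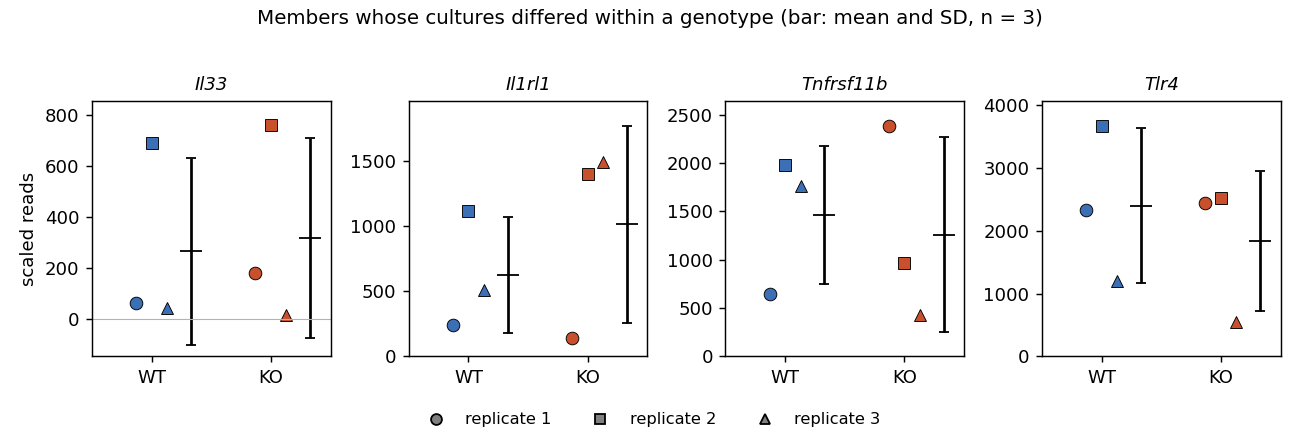
Scaled reads of Il33, Il1rl1, Tnfrsf11b and Tlr4 in each library (vertical axis), with WT and KO side by side, the marker shape giving the replicate number and the bar the mean and SD of 3 libraries. Il33 is highest in replicate 2 of both genotypes (690 and 762), and Tlr4 is lowest in replicate 3 of both (1204 and 547).

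Of the 18 adaptors and kinases, 17 had log2 fold changes within 0.5 of 0, where 83.4% of all genes did. The exception was Birc3 (ENSMUSG00000032000, chromosome 9, 7848699 to 7873186), one of the cIAP ubiquitin ligases that the TNF receptor complex recruits. Birc3 had 525, 560 and 600 scaled reads in WT and 463, 340 and 320 in KO. All KO cultures were below all WT cultures, by little in pair 1 (-0.18) and more in pairs 2 and 3 (-0.72 and -0.90). The limma log2 fold change was -0.60 (SE 0.24, unadjusted p = 0.0408, adjusted p = 0.999). With the replicate block the SE was 0.23 (limma unadjusted p = 0.0439, adjusted p = 0.662). Birc2, encoding the closely related cIAP1, had 1213, 1301 and 1252 scaled reads in WT and 1225, 1030 and 1106 in KO (log2 fold change -0.17, SE 0.18).

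Chuk, encoding the kinase IKK alpha, was the member whose KO cultures all lay above WT. It had 1898, 1935 and 1824 scaled reads in WT and 2353, 2043 and 2090 in KO, a log2 fold change of 0.19 (SE 0.17, limma unadjusted p = 0.290). The within-genotype SD of Chuk was 0.08 on the log2 scale, so the groups were narrow as well as close. Its partner kinase IKK beta, Ikbkb, had 1892, 2659 and 2277 in WT and 2322, 2373 and 1481 in KO, with overlap (log2 fold change -0.16, SE 0.25). Ikbkg, encoding the regulatory subunit NEMO, had a log2 fold change of -0.22 (SE 0.31), and Tbk1, an IKK-related kinase of the interferon branch, one of -0.15 (SE 0.19).

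On the TLR and IL-1 receptor side, Myd88, the adaptor next to the receptors, had 855, 1126 and 1248 scaled reads in WT and 1154, 853 and 826 in KO. The groups overlapped, with KO higher in pair 1 and lower in pairs 2 and 3 (log2 fold change -0.19, SE 0.24). The kinases Irak1 and Irak4 and the ubiquitin ligase Traf6, which act after MYD88, had log2 fold changes of 0.12, 0.16 and -0.06. Map3k7, encoding TAK1, had 2579, 3810 and 3114 in WT and 3066, 3023 and 2117 in KO (log2 fold change -0.21, SE 0.24), and its partners Tab1 and Tab2 had 0.14 and 0.06. None of these groups was separated.

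On the TNF receptor side, Ripk1, a kinase and scaffold of the receptor complex, had 3304, 4107 and 3075 scaled reads in WT and 2819, 3372 and 2688 in KO. KO was lower in all 3 pairs, by -0.23, -0.28 and -0.19, while the groups overlapped (log2 fold change -0.24, SE 0.20, limma unadjusted p = 0.279). Traf2 had 1660, 1166 and 964 in WT and 1162, 990 and 1410 in KO, with KO lower in pairs 1 and 2 and higher in pair 3 (log2 fold change -0.07, SE 0.26). Tradd, the adaptor of TNF receptor 1, had a log2 fold change of 0.07. Traf3, which restrains the noncanonical branch, had -0.06 and Traf5 -0.06.

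All 5 NF-kB subunits had log2 fold changes within 0.5 of 0, where 83.4% of all genes did. Rela, encoding p65, had 4647, 3784 and 4463 scaled reads in WT and 3665, 3244 and 4932 in KO, and the highest of the 6 libraries was a KO culture (log2 fold change -0.14, SE 0.22, limma unadjusted p = 0.548). Nfkb1, encoding p50 and its precursor, had 1694, 1164 and 1285 in WT and 1498, 1593 and 1002 in KO, with overlapping groups (log2 fold change -0.03, SE 0.26, limma unadjusted p = 0.918). Relb, of the noncanonical branch, had 616, 567 and 544 in WT and 537, 503 and 515 in KO. Those groups were separate but close, with a log2 fold change of -0.15 (SE 0.20, limma unadjusted p = 0.476). Nfkb2, encoding p52 and its precursor, had a log2 fold change of -0.09, and Rel, encoding c-Rel, was the subunit with KO above WT in all 3 pairs (0.36, SE 0.29). By level per kilobase in WT, Rela (1399 ± 148) stood above Nfkb2 (688 ± 103), Relb (148 ± 9.49), Nfkb1 (114 ± 23.0) and Rel (52.7 ± 14.0). Relb and Nfkb1 are the closest neighbours in this order.

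The inhibitors went in different directions. Nfkbia, encoding IkB alpha, had 904, 914 and 510 scaled reads in WT and 1372, 845 and 958 in KO. KO was higher in pairs 1 and 3 and lower in pair 2 (log2 fold change 0.46, SE 0.31, limma unadjusted p = 0.182). Tnfaip3, encoding the deubiquitinating enzyme A20, had 1123, 511 and 293 in WT and 1468, 584 and 1065 in KO. KO was higher in all 3 pairs, by 0.39, 0.19 and 1.86, but WT replicate 1 lay above KO replicates 2 and 3 (log2 fold change 0.81, SE 0.55, limma unadjusted p = 0.184). The other 6 genes of this group had log2 fold changes below 0. These were Nfkbie (-0.70, SE 0.50), Bcl3 (-0.61, SE 0.63) and Nfkbiz (-0.54, SE 0.48), which encode IkB family proteins, Irak3 (-0.42, SE 0.25), the inactive IRAK that brakes TLR signalling, Tnip1 (-0.39, SE 0.39), a partner of A20, and Nfkbib (-0.21, SE 0.33), encoding IkB beta. Bcl3 and Nfkbiz stand in this group as IkB family genes, and whether their products inhibit NF-kB in these cells was not measured. None of the 8 had groups without overlap, and Bcl3 was high in a single WT library, at 729 scaled reads against 217 and 125 in the others.

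Icam1 (ENSMUSG00000037405, chromosome 9, 21015985 to 21028817) stood at 7454, 5838 and 11563 scaled reads in WT against 1595, 1453 and 1821 in KO. The KO cultures lay close together and every one was below every WT culture, with pair differences of -2.22, -2.01 and -2.67. The limma log2 fold change was -2.30 (SE 0.28, unadjusted p = 6.66e-05), and its adjusted p = 0.274 over all genes did not pass. With library quality weights in limma the adjusted p = 0.0228 at a log2 fold change of -1.99, and with weights and the replicate block it was 0.0308 at -2.15. The estimate of the weights stopped before convergence in the first of these fits and not in the second. The authors' deposited table gave a log2 ratio of -2.35 and an FDR of 2.07e-09. There, 2 of the 51 genes, Icam1 and Lcn2, had an FDR under 0.05, against 0.525% of the 12389 genes. Leukocyte and macrophage markers, summed over the 4 of 12 in the table, were likewise lower in every KO culture (834 to 1676 scaled reads) than in any WT culture (1995 to 2616). Of the single markers Lyz2 did not overlap, while Cd14, Csf1r and Cd68 did. Over all genes, 4.51% were lower in KO without overlap. Cd14 is also a receptor gene of the wider list described below. The part of these markers in the differences of Icam1 and Lcn2 was not tested.

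Vcam1, which encodes the adhesion molecule that binds the integrin VLA-4, stood at 56033, 33083 and 23934 scaled reads in WT and 30748, 71571 and 6316 in KO. The highest and the lowest library were both KO cultures, and the log2 fold change was -0.56 with an SE of 0.87 (limma unadjusted p = 0.544). The log2 ratio of Icam1 to Vcam1 was -2.91, -2.50 and -1.05 in WT and -4.27, -5.62 and -1.79 in KO. KO was lower in each pair, by -1.36, -3.12 and -0.74. The mean difference of -1.74 had an exact two-sided permutation p = 0.3 without the pairing, where 0.1 is the smallest p possible, so this test could not pass 0.05.

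Lcn2 (ENSMUSG00000026822, chromosome 2, 32384633 to 32388252) stood at 343, 114 and 38.0 scaled reads in WT against 5.35, 1.16 and 0 in KO. In estimated reads these were 289, 98 and 48 in WT and 5, 1 and 0 in KO. WT cultures differed widely among themselves, and every one lay above every KO culture. The log2 fold change was -5.03 (SE 1.77, limma unadjusted p = 0.0243, adjusted p = 0.999), and it moved to -5.59 with a pseudocount of 1 and to -3.42 with 10. With the replicate block its SE was 1.71 (limma unadjusted p = 0.0268, adjusted p = 0.608). The authors' deposited table gave -6.31 with an FDR of 7.15e-04. Without any one of the WT libraries Lcn2 no longer met the minimum level for testing.

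The other targets did not separate the genotypes. Tnfaip2 had 7416, 3679 and 2132 scaled reads in WT and 918, 3888 and 2143 in KO, so its log2 fold change of -0.97 (SE 0.64) rested on pair 1, at -3.01, while pairs 2 and 3 were at 0.08 and 0.01. Tnfaip6, encoding the hyaluronan-binding protein TSG-6, had -2.02, 1.92 and 1.56 in the 3 pairs (log2 fold change 0.48, SE 0.95). Tnfaip8 and Tnfaip1, both first described as TNF-induced genes, had log2 fold changes of -0.05 (SE 0.64) and -0.16 (SE 0.22).

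**Figure D3:**
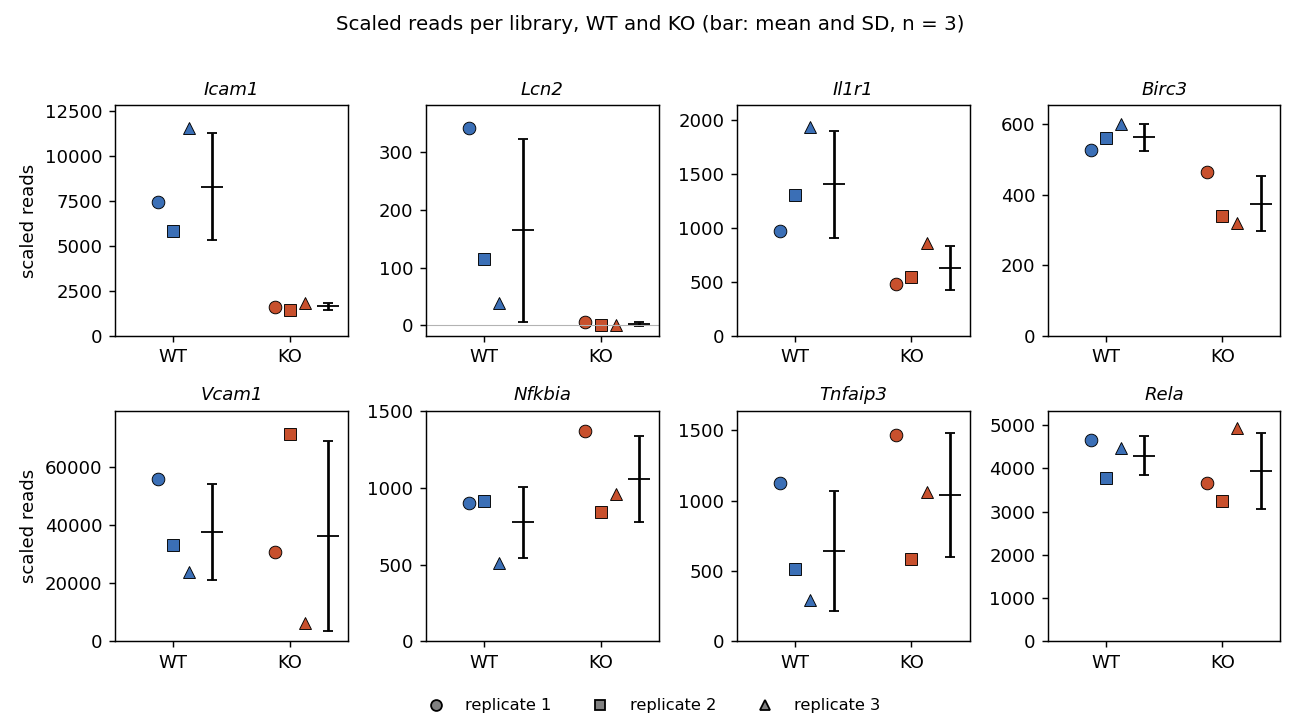
Scaled reads of 8 members in each library (vertical axis), WT beside KO, the marker shape giving the replicate number and the bar the mean and SD of 3 libraries. For Icam1, Lcn2, Il1r1 and Birc3 all KO libraries lie below all WT libraries, and for Vcam1, Nfkbia, Tnfaip3 and Rela the groups overlap.

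**Figure D4:**
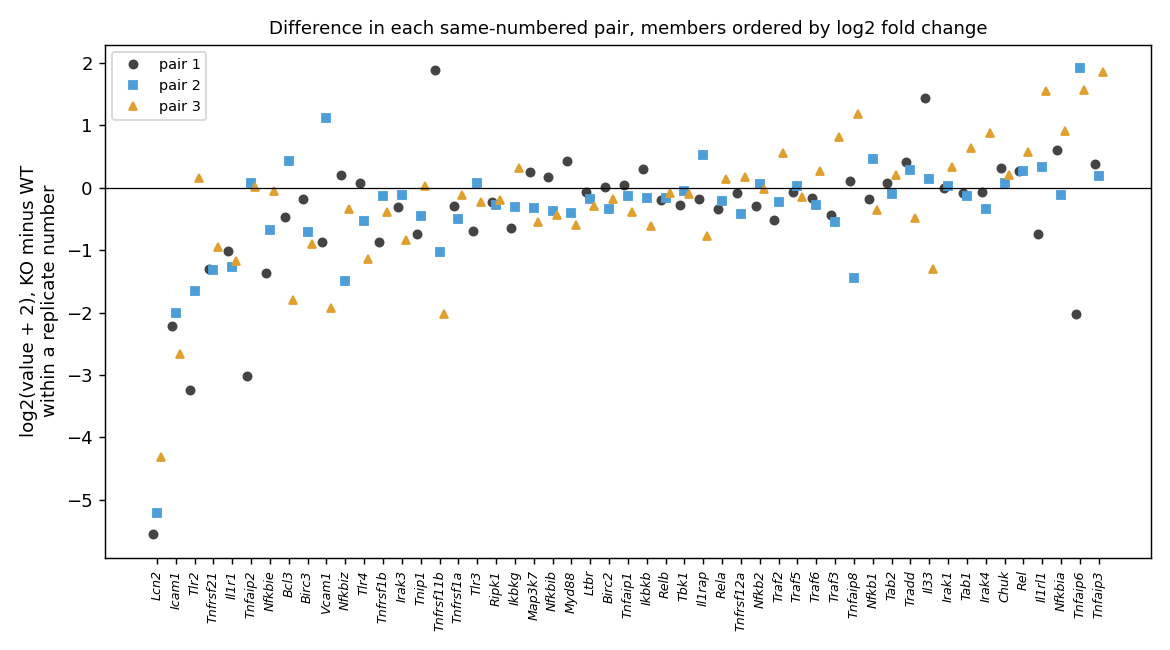
Difference in log2(value + 2), KO minus WT, within each replicate number (vertical axis, 3 marker shapes) for the 51 genes ordered by their log2 fold change (horizontal axis). Icam1 and Il1r1 have all 3 pairs below 0 and close together, while Tnfrsf11b and Tnfaip6 have pairs on both sides of 0.

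A wider list of 105 other genes of the same pathways was examined, and 69 of them were in the table and tested. The list was chosen with earlier results of these data known, so its counts describe the list and are no independent support. An unadjusted limma p under 0.05 was found for 9 of the 69, all lower in KO (2.15% of all genes were), and no gene passed an adjusted limma p of 0.05. By role these were 2 of 12 receptors and ligands, 0 of 30 adaptors and kinases, 0 of 8 inhibitors and 7 of 19 targets. The medians were -0.30, -0.05, -0.14 and -0.89 in that order, against 0.00 over all genes. Tnfsf9, the ligand of 4-1BB, had 313, 246 and 156 scaled reads in WT and 82.2, 126 and 36.3 in KO, all KO cultures below all WT cultures (log2 fold change -1.63, SE 0.59, limma unadjusted p = 0.0279). Ptgs2, the inducible cyclooxygenase and a known NF-kB target, had 9768, 12787 and 5930 in WT and 3675, 2619 and 2410 in KO, likewise without overlap (limma unadjusted p = 0.00128). The lowest unadjusted limma p among the adaptors was 0.0528 for Irak2, a kinase of the MYD88 complex (log2 fold change -0.50), and among the inhibitors 0.232 for Tnip2, an A20 partner (-0.32).

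Annotated exons of 5 of the 51 genes overlap another gene by over 10% of their exonic length: Nfkbib (14.5%), Tnfaip8 (12.7%), Icam1 (11.7%), Nfkb2 (11.6%) and Myd88 (11.3%). For Icam1 the partner, Gm47079, lies on the opposite strand, as do those of the other 4. The use of strand in counting is not stated in the sources at hand, so reads from the overlapping parts cannot be told apart.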

How the data were processed

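Stranded, poly(A)-selected libraries of 6 cultures (3 WT, 3 KO) were sequenced, per the labels' protocols. Tools (STAR, Partek, DESeq2) and builds (GRCm39, mm39) are listed with no role given, per the submitters' processing notes. Per the file headers, the deposited comparison table holds a p-value, a step-up FDR and a log2 ratio (KO over WT) that the authors computed. The per-library values were deposited under a raw count name but are a scaled signal: reads over a factor set for each library. There 1 read was worth 0.712 to 1.19, and 83.0% to 92.8% of values up to 50 reads lay within 0.05 of a whole read, too few to recover reads. Gene starts are those of GRCm38 for 12341 of 12385 genes matched to GENCODE M21, so coordinates are given as GRCm38.

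Differences were tested with limma 3.58.1 (R 4.3.3, statmod 1.5.0) on log2(value + 2) for the 12363 genes with at least 10 in at least 3 libraries, with a mean trend and robust priors, two-sided, and Benjamini-Hochberg adjustment over all of them. All 51 members present passed that minimum. The code of the fit was checked on simulated counts with large changes set for some genes and no shared differences between same-numbered libraries. That check does not measure how well the fit finds changes in these data. The median residual SD was 0.36 on the log2 scale, which holds both the spread between cultures and counting error. Same-numbered libraries correlated above 0.1 in every pair, and this was taken as pairing, though what a number marks is not labelled. With the replicate block the residual SD was 0.26. The SEs and limma p-values of single genes are from the fit without the block unless the block is named. The submitters describe independent biological replicates. Members, roles, wider list and markers were chosen with earlier results of these data known. Members were shown by library where the unadjusted p was under 0.05, where the authors' FDR was under 0.05, where groups did not overlap, or where they lead a role. Others shown by library were chosen after their values were seen. Alternatives changed the scaling, the filter, the pseudocount (1 or 10), the per-library table, the priors, the library weights or the blocking by replicate number, or left out libraries. Leaving out both libraries of a number was chosen after seeing the data.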

Additional observations from a re-analysis of the deposited data

How the results depend on the processing

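The count of genes at an adjusted limma p under 0.05 was 0, with 447 at an unadjusted p under 0.05, and it stayed 0 under the other scalings, filters, pseudocounts, table and priors. Library quality weights, whose estimate stopped before convergence, gave 30 genes, and the replicate block with weights gave 5. Of the members, 1 (Icam1) passed under each of those fits, and no other member passed under any of the 20 alternatives. The replicate block alone gave 0 members and 0 genes, so it changed no call, and it moved the genes at an unadjusted p under 0.05 from 447 to 917 and the members from 4 to 5. With weights 10 members, and with block and weights 9, had an unadjusted p under 0.05. The share over all genes in these fits is not given here, so these counts are not a result about the members. Leaving out libraries gave 0 to 1 genes called (1 without KO replicate 1) and 1 to 5 members at an unadjusted p under 0.05 (1, Icam1, without both libraries of replicate 2, and 2, Icam1 and Il1r1, without WT replicate 2). Shares over all genes at that unadjusted p are not given for the fits with libraries left out either. Lcn2 was not tested without a WT library or with a minimum of 50, since too few of its values then reached the minimum. For Icam1 the adjusted p ran from 0.0228 (weights) to 0.9998 (without both libraries of replicate 2). Of the 51 members, 23 kept their sign under every alternative, among them Icam1, Il1r1, Birc3, Tlr2, Nfkbia and Tnfaip3. The sign turned for 10 members with weights or with weights and block, and for 28 when libraries were left out, and the cause was not tested. With weights the log2 fold changes that turned were Bcl3 0.28, Il1rap 0.32, Il1rl1 -0.44, Il33 -0.69, Irak4 -0.22, Nfkb1 0.32, Nfkb2 0.068, Tab1 -0.0032, Tab2 -0.098 and Vcam1 0.35. With block and weights they were Il1rap 0.17, Irak4 -0.10, Nfkb1 0.19, Tab1 -0.015, Tab2 -0.019 and Vcam1 0.21. With libraries left out, the lowest to highest log2 fold changes were Bcl3 -1.16 (without WT replicate 2) to 0.099 (WT replicate 3), Ikbkb -0.39 (without replicate 1) to 0.066 (replicate 3), Ikbkg -0.55 (without WT replicate 3) to 0.033 (WT replicate 1) and Il1rap -0.48 (without replicate 2) to 0.47 (KO replicate 3). Others were Il1rl1 -0.21 (without replicate 3) to 1.48 (KO replicate 1), Il33 -1.15 (without KO replicate 2) to 1.54 (KO replicate 3), Irak1 -0.016 (without WT replicate 3) to 0.26 (WT replicate 1) and Irak4 -0.21 (without replicate 3) to 0.40 (replicate 2). Next were Myd88 -0.50 (without replicate 1) to 0.016 (replicate 3), Nfkb1 -0.27 (without replicate 2) to 0.18 (KO replicate 3), Nfkb2 -0.22 (without WT replicate 2) to 0.015 (replicate 1) and Nfkbib -0.49 (without WT replicate 1) to 0.058 (WT replicate 3). Further ranges were Tab1 -0.11 (without replicate 3) to 0.28 (replicate 2), Tab2 -0.081 (without KO replicate 3) to 0.17 (KO replicate 1), Tlr4 -0.96 (without WT replicate 3) to 0.19 (KO replicate 3) and Tnfaip2 -1.50 (without replicate 2) to 0.043 (replicate 1). In the same way they were Tnfaip6 -0.34 (without KO replicate 2) to 1.74 (replicate 1), Tnfaip8 -0.76 (without WT replicate 3) to 0.64 (replicate 2), Tnfrsf11b -1.53 (without replicate 1) to 0.43 (replicate 3) and Tnfrsf12a -0.41 (without WT replicate 3) to 0.13 (WT replicate 1). The following were Tnfrsf1b -0.85 (without WT replicate 3) to 0.034 (WT replicate 1), Tnip1 -0.61 (without KO replicate 1) to 0.0004 (WT replicate 1), Tradd -0.11 (without replicate 1) to 0.35 (replicate 3) and Traf2 -0.37 (without replicate 3) to 0.16 (replicate 1). Also of both signs were Traf3 -0.50 (without replicate 3) to 0.19 (replicate 2), Traf5 -0.27 (without WT replicate 1) to 0.15 (KO replicate 1), Traf6 -0.23 (without WT replicate 3) to 0.061 (WT replicate 1) and Vcam1 -1.39 (without replicate 2) to 0.41 (KO replicate 3). At an estimated depth of at least 31.0 M reads, Lcn2 in KO rests on an estimated 5, 1 and 0 reads, so counting limits its value.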

Other observations

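Promoter letters and fold changes were set side by side without a test. The 17 members with a match to the kappa B consensus or GGANNTTCC in a RefSeq window had log2 fold changes with a median of -0.21, 12 of them below 0. The 24 members with a window but no match had a median of -0.16, with 19 below 0, and the 10 members without a window a median of -0.16, with 8 below 0. Members with a match covered the full range of the set outside Lcn2, from -2.30 (Icam1) to 0.81 (Tnfaip3). Icam1, Tlr2 and Nfkbie, with a match, were at -2.30, -1.58 and -0.70, while Nfkbia and Tnfaip3, also with a match, were at 0.46 and 0.81. Lcn2 and Birc3 had no match in their windows. The Lcn2 window lies wholly within its annotated gene body, and the stretch before the Birc3 start lies partly within its own. Bases outside the windows were not searched.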
